A study of Homo sapiens with 16 samples.

Results

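PC3 is an established cell line from a human prostate cancer. It is reported to carry homozygous deletions, and 4 genes named in such reports are described here: STAT3, STAT5A, STAT5B and CTNNA1. They were named for reports on the line and not by a rule on their values, although earlier results of these data were known when they were chosen, and all 4 are among the 20356 genes of the deposited count table. The study asked what loss of DDX4, a germ cell RNA helicase, does to gene expression in PC3 cells. The RNA-seq libraries came from monolayers of control and DDX4-null PC3 cells and from control and DDX4-null xenograft tumors, which are tumors that the human cells form in a host animal, with 4 libraries in each of the 4 groups. The labels give no host species or strain, no age, no method or clone for the DDX4-null cells and no further treatment, and no label ties a library to its own culture or animal. The spread behind each p-value is that between the libraries sequenced and may be technical. A tumor library can hold RNA of the PC3 cells and of host tissue, and the count table does not separate them. RNA counts do not measure DNA, so the copy number of the 4 genes was not measured.

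Library totals ran from 12204254 to 25443952 counts. DDX4 itself had 10, 7, 13 and 11 counts in all in the control cells, DDX4-null cells, control tumors and DDX4-null tumors, with at most 5 in any library, which is too few to check the genotype labels. The epithelial and PC3 markers KRT8, KRT18, KRT19, EPCAM, VIM and CD44 were all above the floor in each group, and KLK3 and KLK2, products of differentiated prostate epithelium, had at most 3 counts in any group. Levels are CPM, counts scaled to a library of 1000000, with TMM scaling over all 16 libraries, given as mean ± SD over n = 4 libraries unless another n is stated.

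STAT proteins are transcription factors held in the cytoplasm until a cytokine or growth factor receptor activates a JAK kinase, which phosphorylates them. Paired STAT proteins then enter the nucleus and bind DNA. STAT3 carries signals of the interleukin-6 family, and STAT5A and STAT5B, a closely related pair encoded side by side, carry those of prolactin, growth hormone and several interleukins. CTNNA1 encodes alpha-E-catenin, which links the cadherin and beta-catenin complex of cell-cell junctions to the actin skeleton. In prostate epithelium STAT5 acts downstream of prolactin, and loss of alpha-catenin is known to weaken cell adhesion.

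By GENCODE v29 on GRCh38, STAT5B lies at chr17:42199168-42276707 on the minus strand, STAT5A at chr17:42287547-42311943 on the plus strand and STAT3 at chr17:42313324-42388568 on the minus strand, so the 3 genes are next to each other. CTNNA1 lies at chr5:138610967-138935034 on the plus strand. The authors counted on GRCh37, so these positions give gene order and not the positions that were counted. STAT5A and STAT5B are the members whose reads could be exchanged. Their reference coding sequences were identical in 2090 of 2401 aligned columns (87.0%), against 50.2% for STAT3 with STAT5A and 49.6% for STAT3 with STAT5B. The longest unbroken identical stretch that they share has 429 bases, from position 564 to 992 of both coding sequences, counted from 1 at the start codon. Its ends are shown because a read that lies within the stretch cannot be given to either gene, while one that crosses an end can. Capitals mark bases inside the stretch and lower case the 30 bases beside it, positions 534 to 623 at its start and 933 to 1022 at its end.
STAT5A start: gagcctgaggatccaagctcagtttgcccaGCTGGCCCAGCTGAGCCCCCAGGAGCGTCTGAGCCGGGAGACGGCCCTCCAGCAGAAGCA
STAT5B start: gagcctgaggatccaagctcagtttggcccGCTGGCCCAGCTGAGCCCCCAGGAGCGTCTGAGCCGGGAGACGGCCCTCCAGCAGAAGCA
STAT5A end: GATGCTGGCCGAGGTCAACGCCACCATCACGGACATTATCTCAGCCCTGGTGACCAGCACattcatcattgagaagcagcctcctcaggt
STAT5B end: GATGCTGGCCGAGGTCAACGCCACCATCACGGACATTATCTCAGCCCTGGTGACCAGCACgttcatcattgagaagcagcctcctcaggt
The flank shown differed at 2 bases before the stretch and at 1 base after it. Over all coding transcripts, 507 of 5133 windows of 50 bases in STAT5B (9.88%) also occurred in STAT5A, and 507 of 4933 windows of STAT5A (10.3%) occurred in STAT5B. For STAT3, 67 of 5428 windows (1.23%) occurred in any other gene. For CTNNA1, 33 of 6879 windows (0.480%) did, all of them in the pseudogene CTNNA1P1. How the authors treated reads with several matches is not given in the sources used here, so the split of tumor reads between STAT5A and STAT5B is uncertain.

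No read was counted on STAT5B, STAT5A or STAT3 in any of the 8 monolayer libraries. A count of 0 allows up to 3 counts per library, which is 0.139 to 0.215 CPM in these libraries, and up to 0.0479 CPM over the 4 control libraries and 0.0408 CPM over the 4 DDX4-null libraries; these limits cover counting error only. The 3 STAT genes were therefore indistinguishable between control and DDX4-null cells, at 0 in both. CTNNA1 differed from them. It had 43, 62, 68 and 47 counts in control cells 1 to 4 and 55, 48, 34 and 69 in DDX4-null cells 1 to 4. Reads on CTNNA1 were thus present in every monolayer library at a low level, and a description of the gene as wholly silent in PC3 does not hold for these counts. The table gives 1 count per gene, so which exons these reads came from was not analysed here.

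CTNNA1 stood at 3.52 ± 0.730 CPM in control cells and 2.76 ± 0.490 CPM in DDX4-null cells, and the ranges of 2.85 to 4.45 and 2.06 to 3.20 CPM overlapped. The exact two-sided permutation test on log2(CPM + 0.5) gave p = 0.171 (0.305 adjusted over 16 tests, 4 genes in 4 comparisons), and the log2 change was -0.34 ± 0.19 (SE) with an adjusted p of 0.123 in edgeR's quasi-likelihood test over all genes. In that comparison 67.3% of the 13006 genes tested were called at an adjusted p under 0.05, so CTNNA1 was in the part of the transcriptome without a call.

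All 4 genes had reads in all 8 tumor libraries. STAT3 had 79, 109, 160 and 113 counts in control tumors 1 to 4, which are 5.54, 6.41, 5.84 and 5.73 CPM. It had 142, 93, 100 and 99 counts in DDX4-null tumors 1 to 4, which are 12.6, 5.03, 5.73 and 6.17 CPM. DDX4-null tumor 1 stood above all others, and the remaining 7 tumors lay close together. STAT5A had 16, 10, 19 and 23 counts in control tumors (1.12, 0.588, 0.694 and 1.17 CPM) and 23, 11, 14 and 23 in DDX4-null tumors (2.03, 0.595, 0.802 and 1.43 CPM). STAT5B had 13, 21, 30 and 20 counts in control tumors (0.911, 1.24, 1.10 and 1.01 CPM) and 25, 10, 13 and 16 in DDX4-null tumors (2.21, 0.541, 0.744 and 0.997 CPM). For both STAT5 genes the groups overlapped, and DDX4-null tumor 1 was again the highest. CTNNA1 had 172, 196, 338 and 238 counts in control tumors, a narrow 11.5 to 12.3 CPM. In DDX4-null tumors it had 213, 162, 150 and 174 counts, which are 18.8, 8.76, 8.59 and 10.8 CPM, so 1 DDX4-null tumor lay above the control tumors and 3 lay below them.

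**Figure D1:**
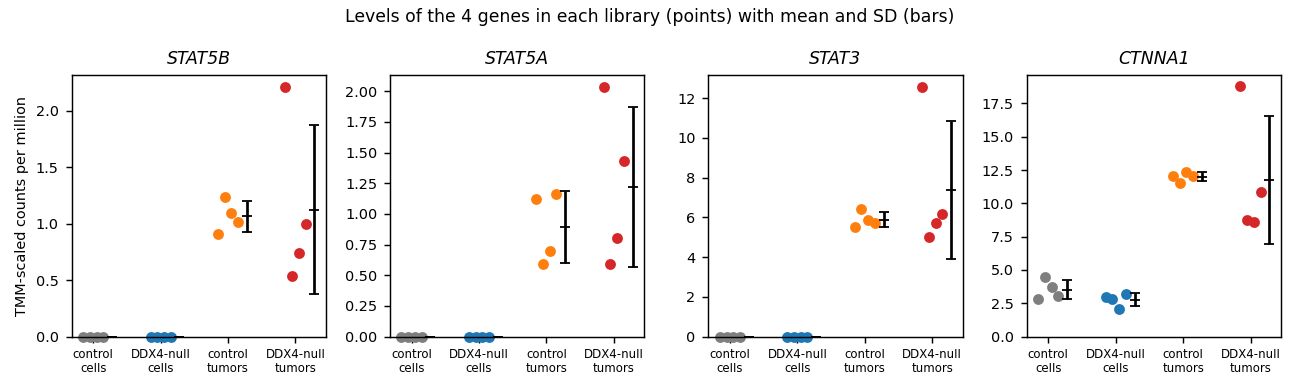
TMM-scaled CPM (vertical axis, linear, from 0 in each panel) of STAT5B, STAT5A, STAT3 and CTNNA1 in the 4 groups; each point is 1 library, in replicate order, and the bar is the mean with its SD. The 3 STAT genes are at 0 in all 8 monolayer libraries, CTNNA1 lies between 2.06 and 4.45 CPM there, and DDX4-null tumor 1 is the highest point of every panel.

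Control tumors were higher than control cells for each gene, and so were DDX4-null tumors over DDX4-null cells, with no overlap between libraries. The share of all genes without overlap is not given here, so this separation does not set the 4 genes apart. Against the 3-count floor over the 4 monolayer libraries, STAT3 was at least 123-fold higher in control tumors and at least 168-fold higher in DDX4-null tumors. STAT5A was at least 18.1-fold and at least 27.5-fold higher, and STAT5B at least 22.4-fold and at least 24.8-fold higher. CTNNA1 was 3.43-fold and 3.94-fold higher by pooled counts, with log2 changes of 1.77 ± 0.15 (SE, edgeR adjusted p = 1.7e-08) and 2.08 ± 0.26 (adjusted p = 8.2e-06). STAT3 was called by edgeR in both setting comparisons (adjusted p = 3.6e-10 for control and 5.2e-07 for DDX4-null), as was STAT5A (6.8e-06 and 4.6e-05). STAT5B was called in the control comparison (8.0e-07), and in the DDX4-null comparison it did not pass the filter on low counts. With 0 counts in the monolayers, the 3 STAT genes could pass that filter only through their tumor counts. The direction of these tests was thus fixed in advance, and their p-values add nothing to the counts themselves. Between these settings 64.9% of 12858 genes were called in control libraries and 69.8% of 13277 in DDX4-null libraries, so a call alone does not set the 4 genes apart. The exact permutation test gave p = 0.0286 for each gene in both comparisons, the smallest value that 4 against 4 libraries allow, and 0.0571 after adjustment over the 16 tests, which misses 0.05.

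Between DDX4-null and control tumors none of the 4 genes was called, where 2.09% of 12942 genes were. STAT3 averaged 5.88 ± 0.377 CPM in control and 7.37 ± 3.49 CPM in DDX4-null tumors (log2 change 0.30 ± 0.26 SE, adjusted p = 0.525, edgeR; exact permutation p = 0.8). STAT5A averaged 0.892 ± 0.294 and 1.22 ± 0.652 CPM (0.41 ± 0.40, adjusted p = 0.584, edgeR), and STAT5B 1.06 ± 0.137 and 1.12 ± 0.749 CPM (-0.00 ± 0.37, adjusted p = 0.995, edgeR). CTNNA1 averaged 11.996 ± 0.338 and 11.8 ± 4.83 CPM (-0.05 ± 0.22, adjusted p = 0.916, edgeR). These means rest on DDX4-null tumor 1. Without it (n = 3), STAT3 averaged 5.64 ± 0.574 CPM, with a log2 change of -0.06 ± 0.15 (adjusted p = 0.879, edgeR). STAT5A then averaged 0.943 ± 0.436 CPM and STAT5B 0.760 ± 0.228 CPM. CTNNA1 averaged 9.39 ± 1.25 CPM, with a log2 change of -0.35 ± 0.13 (adjusted p = 0.181, edgeR). Its 3 remaining DDX4-null tumors lay below all 4 control tumors, a separation for which no share over all genes is given. Without this library STAT3 was still at least 138-fold higher in DDX4-null tumors than in DDX4-null cells, and CTNNA1 kept its rise, 1.78 ± 0.19 on the log2 scale (adjusted p = 4.8e-08, edgeR).

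The absence of counts in monolayers ran over a stretch of neighbouring genes on chromosome 17. In genome order, 10 consecutive protein-coding genes of the table had 0 counts in all 8 monolayer libraries, namely KAT2A, 1 Ensembl ID without a symbol, RAB5C, KCNH4, HCRT, GHDC, STAT5B, STAT5A, STAT3 and CAVIN1. Of all genes counted, 3288 of 20356 genes (16.2%) had no count in the 8 monolayers. Next to the stretch, DHX58, an RNA sensor of the RIG-I family, had 1 count in each monolayer group. Beyond it on that side ZNF385C stood at 0.216 ± 0.135 CPM in control cells and NKIRAS2, an inhibitor of NF-kappaB signalling, at 5.44 ± 0.688 CPM. On the other side ATP6V0A1, a subunit of the vacuolar proton pump, stood at 0.330 ± 0.109 CPM in control cells and 0.818 ± 0.174 CPM in DDX4-null cells. NAGLU, a lysosomal enzyme of heparan sulfate breakdown, followed at 9.30 ± 1.09 and 17.01 ± 2.03 CPM. Of the 15 neighbours above the floor that were tested in monolayers, 10 rose and 1 fell with loss of DDX4, with a median log2 change of 0.68 against 0.02 over all genes tested. That count is near the 67.3% called over all genes. Between the tumor groups 0 of 15 were called, where 2.09% of all genes were.

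Of the 10 genes, 6 were above the floor in tumors: the 3 STAT genes, KAT2A, RAB5C and CAVIN1. KAT2A, a histone acetyltransferase, averaged 0.855 ± 0.221 CPM in control tumors and 1.20 ± 0.353 CPM in DDX4-null tumors. RAB5C, a GTPase of early endosomes, averaged 1.03 ± 0.215 and 1.62 ± 0.657 CPM. CAVIN1, a coat protein of caveolae that is abundant in fibroblasts, endothelium, fat and muscle, averaged 5.60 ± 1.38 and 11.03 ± 10.9 CPM. The last SD came from DDX4-null tumor 1 at 27.3 CPM, and without it CAVIN1 averaged 5.59 ± 0.832 CPM (n = 3). KCNH4, HCRT and the unnamed ID stayed at 0 in the tumors too, and GHDC had 1 count. ATP6V0A1 rose from control cells to control tumors, to 2.10 ± 0.469 CPM (log2 change 2.63 ± 0.31 SE, adjusted p = 1.3e-06, edgeR). NAGLU, at 11.6 ± 0.641 CPM in control tumors, changed by 0.32 ± 0.12 (adjusted p = 0.0281, edgeR), a call that 4 of 15 alternative analyses lost.

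CTNNA1 had no such stretch around it. Of its 24 nearest protein-coding neighbours, 3 (GFRA3, LRRTM2 and ECSCR) were at or under the floor in both monolayer groups, against 8 of 24 around the STAT genes. LRRTM2, a synaptic adhesion gene on the opposite strand within CTNNA1, had no count in any of the 16 libraries; how strand was counted is not given in the sources used here. HSPA9, the mitochondrial HSP70 chaperone on one side, stood at 1083 ± 137 CPM in control cells, and SIL1, a chaperone cofactor of the endoplasmic reticulum on the other, at 10.1 ± 1.75 CPM. CTNNA1, at 3.52 CPM, was thus a low gene between expressed neighbours. In control tumors HSPA9 fell by 1.30 on the log2 scale against control cells (SE 0.10, adjusted p = 6.4e-09, edgeR), while CTNNA1 rose. SIL1 changed by 0.13 ± 0.14 (adjusted p = 0.422, edgeR) there.

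Genes without monolayer counts that had clear tumor counts were few. Of the 3288 genes at 0 in all 8 monolayers, 42 had at least 100 counts over the 8 tumors, a limit chosen after the data were seen. The chromosome 17 stretch held 6 of the 42, and 5 were on the fixed marker lists of other cell types. By tumor counts STAT3 was seventh, with 895, after IGFBP7 (5857), the matrix protease MMP2 (5120), the fast muscle myosin MYH1 (3593), the fast muscle troponin TNNT3 (2264), the muscle actinin ACTN2 (1257) and CAVIN1 (1029). The haemoglobin gene HBB followed with 820 counts.

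Summed markers of fibroblasts, leukocytes, skeletal muscle and red cells were higher in all tumors than in any monolayer. The sum of the fat cell markers, most of it FABP4 in monolayers, was lower. The 8 fibroblast markers summed to 211 to 231 CPM in control cells, 95.2 to 123 in DDX4-null cells, 1548 to 2098 in control tumors and 1842 to 11338 in DDX4-null tumors. The control cell sum came mostly from FBN1 (194 ± 7.95 CPM), which did not rise in control tumors (log2 change -0.004 ± 0.09, SE). COL1A1 had 1480 counts in control cells and 2738 in DDX4-null cells. PDGFRA had 23 and 692, and its 9.39 ± 0.359 CPM in DDX4-null cells compared with 6.43 ± 3.93 in DDX4-null tumors. COL1A2 and DCN had 1 and 1 counts in control cells and 4 and 0 in DDX4-null cells. In tumors COL1A2, a chain of type I collagen, had 19948 and 38005 counts. The 9 leukocyte markers summed to 1.33 to 2.66 CPM over both monolayer groups, 17.4 to 36.2 in control tumors and 15.9 to 78.5 in DDX4-null tumors, and their members TYROBP and AIF1 had 0 counts in all monolayers. The 7 skeletal muscle markers summed to 13.8 to 19.2 CPM in monolayers, most of it TTN, and to 142 to 441 CPM in tumors, with TNNT3 at 0 in all monolayers. The 5 erythroid markers summed to 0.107 to 0.442 CPM in monolayers and 2.76 to 15.7 in tumors. The 6 adipocyte markers summed to 32.2 to 54.4 CPM in monolayers, most of it FABP4, and to 5.04 to 11.5 CPM in tumors. Members of this list differed in direction. From control cells to control tumors FABP4 fell by 4.55 on the log2 scale, and PLIN1 and CIDEC fell less (-0.76 ± 0.31 and -1.20 ± 0.34). LPL went from 0 counts in both monolayer groups to 259 in control and 197 in DDX4-null tumors. ADIPOQ went from 0 and 1 counts to 21 and 7. The 7 endothelial and pericyte markers, at 26.6 to 28.9 CPM in control cells, 55.4 to 62.3 in DDX4-null cells, 32.8 to 42.0 in control tumors and 39.0 to 58.5 in DDX4-null tumors, were higher in tumors for control and overlapped for DDX4-null. Among the endothelial markers CDH5 had 0 and 4 counts in control and DDX4-null cells and 108 and 80 in the tumors. VWF had 1 and 14 counts in the cells and 94 and 43 in the tumors. ENG and TIE1 fell from DDX4-null cells to DDX4-null tumors (log2 change -1.15 ± 0.16 and -0.85 ± 0.33). The sums of the 7 epidermis and hair follicle markers overlapped between monolayers (22.4 to 42.4 CPM, most of it KRT10) and tumors (28.2 to 78.2 CPM). Other members of this list were higher in tumors. KRT14 had 7 and 0 counts in control and DDX4-null cells and 494 and 93 in the tumors. KRT25 and KRT71 had 0 counts in both monolayer groups, 483 and 407 in control tumors, and 3 and 0 in DDX4-null tumors. In bulk samples, fewer cells of a type and less RNA per cell cannot be told apart. The part of these cells in the tumor counts of the 4 genes was not tested.

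DDX4-null tumor 1 was highest of the 8 tumors in STAT3, STAT5A, STAT5B, CTNNA1, CAVIN1 and RAB5C, and also in the fibroblast sum (11338 CPM, others 1548 to 2147) and the leukocyte sum (78.5 CPM, others 15.9 to 40.0). The same tumor was highest in the sum of the 6 PC3 and epithelial markers (6141 CPM, others 3195 to 4500), of the 5 prostate lineage markers (37.8 CPM, others 14.1 to 21.5) and of the adipocyte markers (11.5 CPM, others 5.04 to 7.26). KAT2A was highest in DDX4-null tumor 4, at 1.62 CPM. The muscle sum of DDX4-null tumor 1, 347 CPM, lay within the range of the others. STAT3 there was 12.6 CPM against 5.03 to 6.41 CPM in the other 7 tumors, a smaller excess than that of the fibroblast sum.

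**Figure D2:**
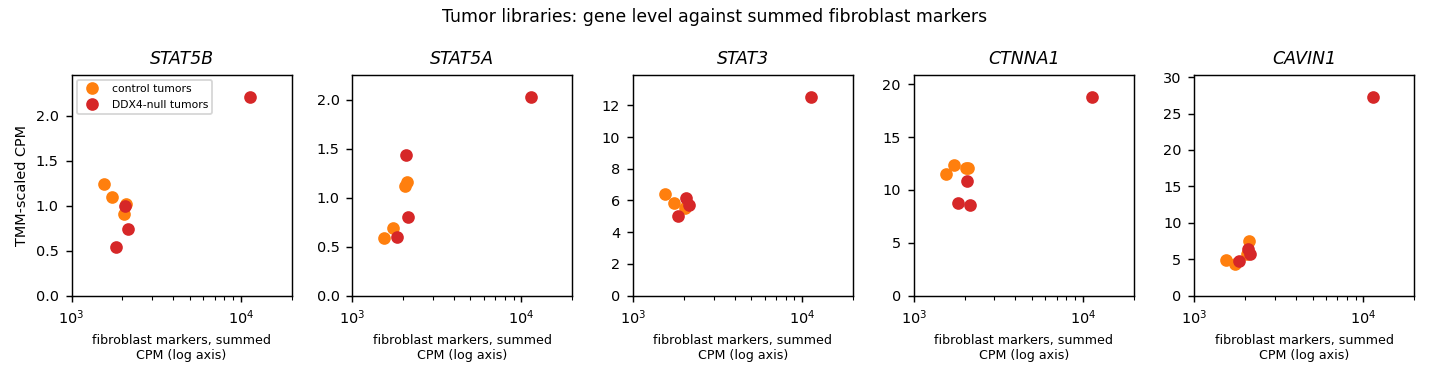
TMM-scaled CPM (vertical axis, linear) of STAT5B, STAT5A, STAT3, CTNNA1 and CAVIN1 in each of the 8 tumor libraries against the summed CPM of 8 fibroblast markers (horizontal, log axis), with 1 point per library. One point, DDX4-null tumor 1 at 11338 CPM of fibroblast markers, lies apart in every panel, and the other 7 lie between 1548 and 2147 CPM.

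The genes whose levels ran most like each member over the 16 libraries were found by Pearson's r on log2(CPM + 0.5) among 13697 genes. This describes these libraries only, which share setting and depth within a group, and most of the range is the step from monolayer to tumor. For STAT3 they were POSTN (r = 0.999), COL1A2 (0.998), THBS2 (0.997), IGFBP7 (0.996) and SDC1 (0.995). POSTN, COL1A2 and THBS2 encode matrix proteins, and SDC1 encodes a cell surface proteoglycan. SDC1 had 12803 counts in the monolayers, where POSTN had 1. For STAT5A they were CPXM1, CSF1R, COLEC12, RPL10L and AEBP1 (0.987 to 0.989), of which CSF1R, the macrophage growth factor receptor, is on the leukocyte list. For STAT5B they were GPC3, BDH1, KISS1R, PARP6 and POTEF (0.985 to 0.987). For CTNNA1 they were SOCS1, PARP6, GM2A, BGN and STAT5B (0.973 to 0.975). Ranking by Spearman's rho kept 1 of the 20 names.

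Compared as CPM per kb of exon, the 3 genes were below STAT2, STAT4 and STAT6 in monolayers. In control cells STAT2 stood at 19.9 ± 2.11, STAT6 at 7.68 ± 0.589 and STAT4 at 0.596 ± 0.0803 CPM per kb, in that order and with no overlap between neighbours, and STAT3, STAT5A and STAT5B were at 0. In control tumors the order was STAT2 (34.6 ± 5.71), STAT6 (4.38 ± 0.457), STAT3 (0.667 ± 0.0428), STAT4 (0.427 ± 0.185), STAT5B (0.165 ± 0.0212) and STAT5A (0.155 ± 0.0511 CPM per kb). STAT3 and STAT4 overlapped there, as did STAT5A and STAT5B. In DDX4-null tumors STAT3 stood at 0.836 ± 0.396, STAT4 at 0.385 ± 0.139, STAT5A at 0.211 ± 0.113 and STAT5B at 0.174 ± 0.116 CPM per kb. Both STAT5 genes were thus at a lower level per length than STAT3 in the tumors.

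Among alpha-catenins CTNNA1, the usual epithelial form, was not the highest in the cells. CTNNA3, known as the alpha-catenin of heart and testis, stood at 2.03 ± 0.185 CPM per kb in control cells and 1.66 ± 0.267 in DDX4-null cells, and CTNNA1 at 0.399 ± 0.0827 and 0.313 ± 0.0555. In control tumors the order turned, with CTNNA1 at 1.36 ± 0.0383 and CTNNA3 at 0.877 ± 0.186 CPM per kb, and the ranges did not overlap. In DDX4-null tumors CTNNA1 (1.33 ± 0.547) and CTNNA3 (1.19 ± 0.176) overlapped. CTNNA2, the neural form, had 0 counts in monolayers and 4 and 3 counts in the tumor groups. The related gene CTNNAL1 was far higher, at 52.7 ± 6.73 CPM per kb in control cells and 35.2 ± 1.74 in control tumors.

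**Figure D3:**
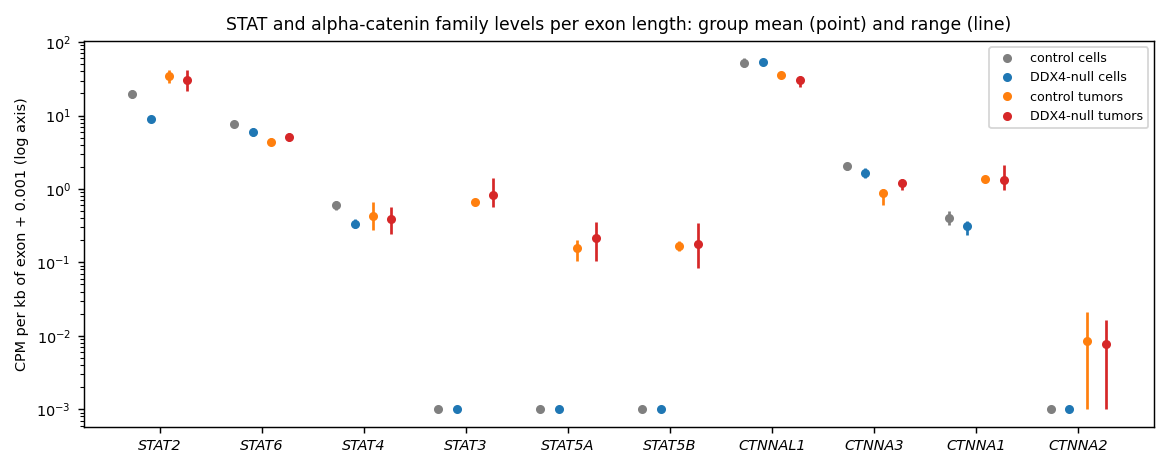
CPM per kb of exon plus 0.001 (log axis, so that 0 is drawn at 0.001) of STAT and alpha-catenin family genes in 4 groups, with points for group means and lines from the lowest to the highest library. STAT3, STAT5A and STAT5B are at 0 in both monolayer groups, while STAT2 is at 19.9 CPM per kb in control cells and CTNNA3 lies above CTNNA1 in both monolayer groups.

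STAT2, STAT4 and STAT6 were expressed in the same cells and fell with loss of DDX4 in monolayers, where 32.3% of all genes tested fell. STAT2, a factor of interferon signalling, fell by 1.13 on the log2 scale (SE 0.11, from 122 ± 12.9 to 55.4 ± 5.97 CPM, adjusted p = 2.1e-08, edgeR). STAT4 changed by -0.84 ± 0.19 and STAT6 by -0.37 ± 0.10, where the median over all genes tested was 0.02. In tumors none of the 3 was called, where 2.09% of all genes were. The log2 changes there were -0.18 ± 0.20 for STAT2, -0.12 ± 0.34 for STAT4 and 0.21 ± 0.11 for STAT6 (adjusted p = 0.624, 0.865 and 0.260, edgeR). In control tumors, against control cells, STAT2 rose (0.80 ± 0.12) and STAT6 fell (-0.81 ± 0.10).

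Upstream of the STAT genes, of 25 JAK kinases and cytokine receptors 21 were tested in monolayers, of which 5 rose and 8 fell (61.9% called, near the 67.3% of all genes; median -0.07). JAK1, the kinase paired with gp130, fell by 0.67 on the log2 scale from 215 ± 6.76 to 135 ± 7.62 CPM, and IL6ST, which encodes gp130, fell by 0.73 from 190 ± 10.97 to 114 ± 26.9 CPM. IL6R, the interleukin-6 receptor chain, rose by 0.60 ± 0.11, and LEPR, the leptin receptor, by 2.26 ± 0.17 from a low 1.52 ± 0.0983 CPM. IL13RA1, a chain of the interleukin-13 receptor, fell by 1.25 on the log2 scale. In tumors 0 of 19 tested were called, where 2.09% of all genes were (median 0.07). From control cells to control tumors 4 rose and 10 fell of 20 (70% called, near the 64.9% of all genes). GHR, the growth hormone receptor that acts through STAT5, rose by 1.60 ± 0.16 to 12.2 ± 2.28 CPM there.

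The cytokines that signal through STAT3 or STAT5 were mostly lower in DDX4-null cells. Of 17 listed, 9 were tested, 6 fell and 2 rose (88.9% called, all genes 67.3%), with a median of -1.37 against 0.02 over all genes tested. IL6 fell from 229 ± 31.3 to 11.97 ± 1.01 CPM (log2 change -4.26 ± 0.12 SE, adjusted p = 6.4e-16, edgeR), and CSF3, the granulocyte factor G-CSF, from 25.9 ± 0.743 to 0.804 ± 0.200 CPM (-5.02 ± 0.17). LIF fell from 392 ± 36.2 to 159 ± 15.6 CPM and CLCF1 from 49.9 ± 1.75 to 16.5 ± 2.14 CPM, both of the interleukin-6 family. The 2 that rose, IL11 and CTF1, are of the same family. IL11 rose from 2.01 ± 0.299 to 4.34 ± 0.368 CPM (1.11 ± 0.17) and CTF1 from 2.94 ± 0.363 to 4.98 ± 0.370 CPM (0.75 ± 0.16). In tumors 0 of 8 were called, where 2.09% of all genes were (median 0.01). IL6 was already low in control tumors at 0.830 ± 0.352 CPM, a fall of 8.11 on the log2 scale from control cells (SE 0.18, adjusted p = 2.4e-15, edgeR). There 0 of 8 rose and 6 fell (75% called, all genes 64.9%), where 33.9% of all genes rose and 31.0% fell. In DDX4-null libraries CLCF1 rose from cells to tumors by 1.72 ± 0.13, while IL6 fell by 4.21 on the log2 scale.

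Of 16 inhibitors of STAT signalling tested in monolayers, 3 rose and 8 fell (68.8% called, near the 67.3% of all genes; median -0.37). SOCS3, the feedback inhibitor of gp130, fell from 80.9 ± 14.3 to 25.5 ± 4.34 CPM (log2 change -1.66 ± 0.14), and PIAS3, named for its binding to STAT3, fell from 26.4 ± 2.63 to 11.2 ± 0.744 CPM. SOCS2, an inhibitor of growth hormone signalling, rose from 20.8 ± 3.15 to 101 ± 11.5 CPM (2.29 ± 0.12). In tumors 0 of 16 were called, where 2.09% of all genes were (median -0.01). From control cells to control tumors 7 rose and 4 fell (68.8% called, near the 64.9% of all genes). SOCS1 rose by 2.15 ± 0.26 there, to 4.07 ± 0.700 CPM. In DDX4-null libraries 8 rose and 4 fell from cells to tumors (75% called, all genes 69.8%). SOCS3 rose by 2.11 ± 0.16 in these.

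Of 18 genes that textbooks list as STAT3 or STAT5 targets, 16 passed the filter on low counts in the monolayers, where no STAT3 or STAT5 read was counted. Of these, 7 rose and 8 fell with loss of DDX4 (93.8% called, all genes 67.3%; median -0.26). ICAM1, an adhesion molecule for leukocytes, fell from 320 ± 25.2 to 40.3 ± 5.03 CPM (log2 change -2.99 ± 0.11), IRF1 from 73.1 ± 1.95 to 18.5 ± 1.76 CPM, BCL3 from 55.7 ± 2.84 to 16.1 ± 2.66 CPM and VEGFA from 348 ± 9.33 to 139 ± 6.90 CPM. Among the 7 that rose were SOCS2 (2.29 ± 0.12), BCL2L1 (0.83 ± 0.11) and MYC (0.81 ± 0.10). In tumors 2 of 16 were called, both upward, where 2.09% of all genes were called. BCL3 rose from 21.4 ± 1.02 to 29.7 ± 2.71 CPM (0.47 ± 0.09, adjusted p = 0.0321, edgeR), and VEGFA, the endothelial growth factor, from 98.6 ± 18.9 to 165 ± 25.9 CPM (0.74 ± 0.15, adjusted p = 0.033, edgeR). These calls were lost in 6 and 5 of 15 alternatives (adjusted p up to 0.123). From control cells to control tumors 6 rose and 9 fell of 16 (93.8% called, all genes 64.9%). MYC fell by 1.47 on the log2 scale there, from 458 ± 29.7 to 164 ± 5.77 CPM.

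Around CTNNA1, 15 catenins and alpha-catenin partners were tested in monolayers, of which 7 rose and 2 fell (9 of 15 called, near the 67.3% of all genes; median 0.17). VCL, vinculin, which binds stretched alpha-catenin, rose from 812 ± 13.9 to 1455 ± 42.6 CPM (0.84 ± 0.09). JUP, plakoglobin, rose by 0.53 ± 0.13, and CTNND2, delta-catenin, rose from 0.345 ± 0.131 to 10.7 ± 1.01 CPM (4.96 ± 0.23). CTNND1, p120-catenin, fell from 452 ± 15.2 to 303 ± 11.8 CPM. In tumors 0 of 15 were called, where 2.09% of all genes were (median -0.07). From control cells to control tumors 4 rose and 8 fell of 14 (85.7% called, all genes 64.9%; median -0.29), while CTNNA1 rose. LIMA1, which links alpha-catenin to actin, fell by 1.46 on the log2 scale, and AJUBA fell by 1.40.

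Of the classical cadherins and nectins, 7 were tested in monolayers, 1 rose and 3 fell (57.1% called, all genes 67.3%; median 0.14). CDH2, N-cadherin, fell from 216 ± 20.2 to 123 ± 6.32 CPM, CDH1, E-cadherin, from 14.9 ± 2.05 to 7.01 ± 0.216 CPM, and CDH11 rose from 513 ± 26.1 to 725 ± 36.6 CPM. In tumors 0 of 7 were called, where 2.09% of all genes were (median 0.13). From control cells to control tumors CDH1 rose by 1.00 ± 0.12 and CDH2 fell by 1.66 on the log2 scale (adjusted p = 1.3e-06 and 1.0e-10, edgeR). CDH1 rose by 2.23 ± 0.14 between the DDX4-null groups. The monolayer groups enter both a genotype and a setting comparison, so changes in these comparisons are not independent of each other.

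**Figure D4:**
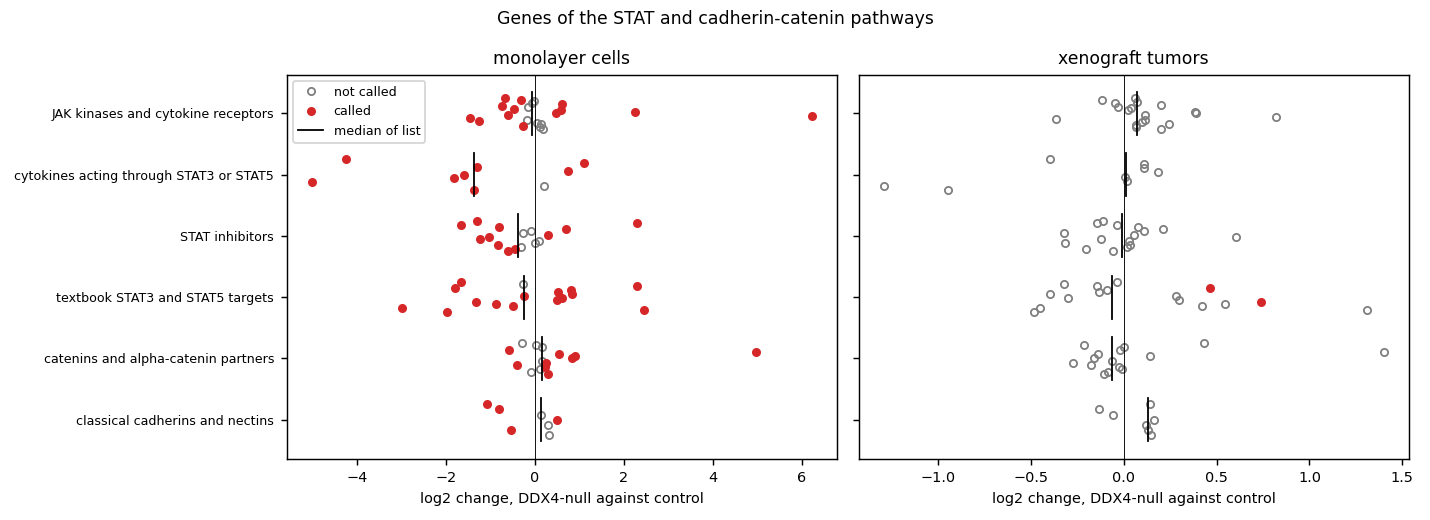
Log2 change of DDX4-null against control (horizontal axes, of different scale) for genes of 6 lists in monolayer cells and in tumors; each circle is a gene, filled where edgeR's adjusted p is under 0.05, and the vertical bar is the list's median. Of the 16 STAT inhibitors 11 were called in monolayers, where 67.3% of all genes were called, and 2 genes, BCL3 and VEGFA, were called in tumors, where 2.09% were.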

How the data were processed

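The authors deposited raw counts of reads for each Ensembl gene in 16 libraries, and these counts were used unchanged. Per the labels' protocols, RNA was treated with DNase I and libraries came from a stranded TruSeq mRNA kit. Per the submitters' processing notes, Trimmomatic 0.39, STAR 2.7.10a, featureCounts 2.0.3 and build GRCh37 were used; what was done with strand, with reads of several matches and with host reads, and which annotation was counted, is not given in the sources used here. Symbols came from a name table (19446 IDs) and GENCODE v29 (44 more), and 866 IDs had none. Gene order, exon lengths and sequences came from GENCODE v29 on GRCh38.

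Tests over all genes used edgeR 4.0.16 (R 4.3.3; quasi-likelihood F test, TMM, filterByExpr, Benjamini-Hochberg at 0.05) on the 8 libraries of each comparison. The 4 genes were also tested with exact two-sided permutation tests of log2(CPM + 0.5). The steps were tested on simulated counts. Library totals limit precision: 3 counts are 0.110 to 0.265 CPM per library. No libraries of a group agreed within sampling noise. Alternatives were DESeq2 1.42.0, RLE factors, library totals, other filters and pseudocounts, a model of all 16 libraries, a replicate block and leaving out each library.

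The members and the gene lists were chosen with earlier results of these data known. Named genes were the members, neighbours at the floor, the nearest 3 above it or called, STAT factors outside the members, and of each other list up to 6 genes by p in a genotype and 3 in a setting comparison, with the 5 genes most like each member. Some single-gene results are left out.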

Additional observations from a re-analysis of the deposited data

Results flagged for a closer look

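In groups of 4 libraries, the gap between the highest or lowest library and the nearest other was compared with the whole range, and a share above Dixon's 95% critical value was taken as a library that stands apart. Of 82 groups looked at, over 24 values, 6 passed, and chance gives about 1 in 20. Groups in which no library had more than 3 counts were left out, a limit set after the data were seen that removed DHX58, with 1 count in 1 library of each monolayer group.

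Of the 6, 3 concerned DDX4-null tumor 1. Its STAT3 level was 12.6 CPM against 5.03 to 6.17 CPM in the other DDX4-null tumors. Its CAVIN1 level was 27.3 CPM against 4.70 to 6.35 CPM, and its fibroblast markers summed to 11338 CPM against 1842 to 2147 CPM. Control tumor 3 had 1.35 CPM of RAB5C against 0.911 to 0.941 CPM in the other control tumors, and its adipocyte markers summed to 7.26 CPM against 6.13 to 6.31 CPM. Control tumor 2 had 6.71 CPM of CTNNA3 against 10.3 to 11.05 CPM.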

How the results depend on the processing

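Of 333 alternative values for the 4 genes, 316 kept their direction and side of the threshold and 17 changed sign, all between DDX4-null and control tumors, where no value was called. For STAT5B the log2 difference became 0.000517 with a pseudocount of 2 CPM, 0.0281 in DESeq2 and 0.00335 with RLE factors. Leaving out each library gave -0.32 to 0.14 in the permutation test and -0.49 to 0.25 in the model for STAT5B, -0.0575 to 0.36 and -0.0556 to 0.46 for STAT3, and -0.34 to 0.0193 and -0.35 to 0.0781 for CTNNA1. The cause was not tested. The count of genes called between tumors, 270, became 886 in DESeq2 and 808 in the model of all 16 libraries, and leaving out a library gave 26 to 289: 134, 47 and 26 when control tumor 1, 2 or 3 was left out, and 129 when DDX4-null tumor 2 or 3 was. All 161 alternative counts of list genes stayed within 1.5 times.

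Same-numbered libraries did not deviate together (in tumors r = 0.18, 0.16, -0.01 and -0.07), so the numbers were not taken as pairs. With the replicate block 425 genes were called between tumors, and CTNNA1 changed by -0.34 ± 0.20 in monolayers (adjusted p = 0.137, edgeR); the exact sign-flip test of 4 pairs cannot go below p = 0.125. Depth limits the STAT5 genes most, at 10 to 30 counts per tumor.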
